A study of Mus musculus with 6 samples.

Results

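The p200 genes, also called PYHIN genes, form one cluster on mouse chromosome 1 and encode sensors and regulators of nucleic acid responses. Members were taken by gene symbol from a set of 10 names (Ifi203, Ifi204, Ifi205, Ifi207, Ifi208, Ifi209, Ifi211, Ifi213, Mnda and Aim2), and 9 of the 10 names had a row among 52550 genes. No row carried the symbol Mnda, which RefSeq lists as an older name of Ifi211. The cells were plasmacytoid dendritic cells (pDCs), the rare dendritic cells that secrete type I interferon, from the spleens of C57BL/6 mice. The first group of 3 libraries received R837 together with taurine for 12 h. The comparison group of 3 libraries received R837 alone for the same time. R837 is imiquimod, an agonist of the RNA sensor TLR7, so every library in both groups came from stimulated cells. Taurine is a sulfur-containing amino acid that is abundant in many cells. Neither the taurine dose, the age of the mice nor whether replicates came from separate animals is given in the labels.

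A typical p200 protein carries an N-terminal pyrin domain, which joins other pyrin domains, and 1 or more C-terminal HIN-200 domains, which bind the backbone of DNA. Most of the genes are induced by interferon, and they have multiplied and diverged in the mouse, so that neighbouring genes are close copies. Aim2 binds double-stranded DNA in the cytosol and assembles an inflammasome with Pycard and caspase-1, whereas Ifi204, the mouse relative of human IFI16, has been placed upstream of the adaptor STING.

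Before the values, the promoters are shown, because similar copies of this family also have similar start regions. The RefSeq table (build GRCm38.p6) held a promoter of 300 bases, 250 before the start site and 50 after it, for 8 of the 9 members and for 12 p200 genes in all, in 14 promoters. The member without one was Ifi204, so its start region was not searched. The core of the interferon-stimulated response element, GAAA followed by any 2 bases and GAAA again, was searched on both strands. It stood in 10 of the 14 p200 promoters (71.4%) and in 1131 of all 32851 promoters (3.44%). The same element stood in 6 of 9 promoters of the IFIT family and in 5 of 6 promoters of guanylate-binding proteins, which are other groups of interferon-induced genes. Below are stretches of 40 bases, 5′ to 3′ on the gene's strand, with the match in capitals, for the members that had one and, in the last line, the stretch of Ifi209 that resembles them and holds no match.
Ifi211, chr1:173913059-173913098, minus strand: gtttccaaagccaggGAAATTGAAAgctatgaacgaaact
Ifi205, chr1:174031865-174031904, minus strand: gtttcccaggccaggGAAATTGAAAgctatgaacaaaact
Ifi207, chr1:173741826-173741865, minus strand: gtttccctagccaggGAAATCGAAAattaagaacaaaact
Ifi203, chr1:173942503-173942542, minus strand: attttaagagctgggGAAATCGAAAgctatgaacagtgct
Ifi213, chr1:173599321-173599360, minus strand: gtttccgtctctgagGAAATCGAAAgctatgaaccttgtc
Ifi208, chr1:173673592-173673631, plus strand: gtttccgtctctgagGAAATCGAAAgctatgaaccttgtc
Ifi209, chr1:173630765-173630804, plus strand: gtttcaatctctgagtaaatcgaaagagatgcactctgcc

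Ifi211 and Ifi205 shared the form GAAATTGAAA, and the other members with a match shared GAAATCGAAA. The stretches of Ifi213 and Ifi208 were identical over all 40 bases. Counted from the start site, the match began at position -73 in Ifi213, -58 in Ifi208, -41 in Ifi207, -37 in Ifi211, -35 in Ifi203 and -134 in Ifi205. Neither Ifi209 nor Aim2 held the element in its window. A second set of letters, TTCNNNGAA, the gamma-activated site, stood in 1 of the 14 p200 promoters (7.14%) and in 8.30% of all promoters. The whole promoters of Ifi211 and Ifi205, whose normalized counts are compared first below, and of Aim2, which held neither set of letters, are as follows, with matches to the first element in capitals (the second match in Ifi205 lies on the opposite strand).
Ifi211, chr1:173912997-173913296, minus strand: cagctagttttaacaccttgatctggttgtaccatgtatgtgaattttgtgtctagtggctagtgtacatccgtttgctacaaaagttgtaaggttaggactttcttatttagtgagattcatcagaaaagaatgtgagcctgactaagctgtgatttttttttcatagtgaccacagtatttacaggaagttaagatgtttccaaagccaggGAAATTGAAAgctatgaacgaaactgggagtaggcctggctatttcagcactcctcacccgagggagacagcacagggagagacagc
Ifi205, chr1:174031706-174032005, minus strand: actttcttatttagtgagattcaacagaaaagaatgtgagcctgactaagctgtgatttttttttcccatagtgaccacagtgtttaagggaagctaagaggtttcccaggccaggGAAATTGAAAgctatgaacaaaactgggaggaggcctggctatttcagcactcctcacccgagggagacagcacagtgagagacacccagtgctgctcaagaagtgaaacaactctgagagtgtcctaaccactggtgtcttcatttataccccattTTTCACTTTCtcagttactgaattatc
Aim2, chr1:173420354-173420653, plus strand: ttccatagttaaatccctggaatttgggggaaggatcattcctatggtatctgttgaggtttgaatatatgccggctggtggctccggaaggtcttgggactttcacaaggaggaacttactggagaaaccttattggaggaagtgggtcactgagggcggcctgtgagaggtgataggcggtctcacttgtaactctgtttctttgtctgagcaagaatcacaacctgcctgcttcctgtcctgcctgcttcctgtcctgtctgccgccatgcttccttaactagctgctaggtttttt
The matches are a description of these letters, and no binding was measured.

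The 6 libraries held 33585080 to 38392654 reads on genes, and between 18739 and 19003 genes were above 0. The pDC label was checked against 18 markers, all of which passed the filter on low values. Siglech, a surface lectin of pDCs, lay at 10336, 11919 and 11827 normalized counts with taurine and at 13384, 11278 and 10647 with R837. The summed level of the 18 markers ranged over 435918 to 450020 normalized counts with taurine and over 413719 to 450127 with R837. Much of that sum was Ly6d (means of 114762 with taurine and 98896 with R837) and Irf8 (107730 and 103184). Of the 18 markers, 3 rose (Bst2, Cox6a2, Il3ra; log2 changes of 0.38 to 0.74) and 4 fell (Tcf4, Runx2, Pacsin1, Klk1; -0.60 to -0.35). With 1 library left out the calls among these markers numbered 1 to 10, the 10 without R837 replicate 3. Summed conventional dendritic cell markers lay at 90924 to 97655 with taurine and 105752 to 113141 with R837. Most of that sum was Cd8a, with means of 72853.5 with taurine and 85303 with R837. The sum thus mainly followed this gene and is no measure of conventional dendritic cell content. Of the 10 markers 3 fell (Clec9a, Cd8a, Flt3), a count of 0 when any library but R837 replicate 3 was left out. Monocyte and macrophage markers, of which 12 of 14 passed the filter and Fcgr1 rose, summed to 9290 to 11513 with taurine and 10164 to 10571 with R837. Neutrophil markers, of which 10 of 12 passed and Ngp rose, summed to 2006 to 2379 with taurine and 1314 to 1989 with R837. B cell markers, of which 8 of 9 passed and 0 were called, summed to 2050 to 2753 with taurine and 1928 to 3026 with R837, with Pax5 the largest part. T and NK cell markers summed to 5021 to 6444 with taurine and 5234 to 6298 with R837, most of it Cd8b1; 4 of 11 passed, 0 were called, and Cd3d, Cd3g and Gzma were at 0 in all 6 libraries. The part of these marker differences in the p200 values was not tested. In bulk RNA, fewer cells of a type and less RNA per cell cannot be told apart.

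With taurine, 3 of the 9 members rose and none fell. These were Ifi205, Ifi211 and Ifi204, which were 1.43-fold to 1.54-fold higher than with R837 alone. A call is an adjusted p below 0.05 in limma on log2(normalized count + 1), adjusted over all 15265 genes that passed the filter. All 9 members passed that filter, and 4 had an unadjusted limma p below 0.05, Ifi209 and the 3 that rose, all higher with taurine, where 23.7% of all tested genes had such a p in either direction. Over all tested genes 3.75% rose and 2.66% fell by the same rule. The median log2 change was 0.16 over the 9 members and -0.01 over all tested genes, and 7 members had positive and 2 had negative values. For 3 members, again Ifi205, Ifi211 and Ifi204, every taurine library lay above every R837 library, which held for 14.6% of all tested genes. For 0 members did every taurine library lie below every R837 library, against 15.0% of all tested genes. On the recovered reads, edgeR's quasi-likelihood test called 3 members higher (background 3.74%), and DESeq2 called 4 (background 6.51%), with Ifi209 as the fourth. Across genes, the deviation of a library from the gene's mean correlated with exon length at Spearman -0.10, -0.13 and -0.20 in the taurine libraries and at 0.11, 0.15 and 0.04 in the R837 libraries, so that this trend moved with the groups. With length and GC trends removed, 3 members were called: Ifi211, Ifi204 and Ifi209.

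**Figure D1:**
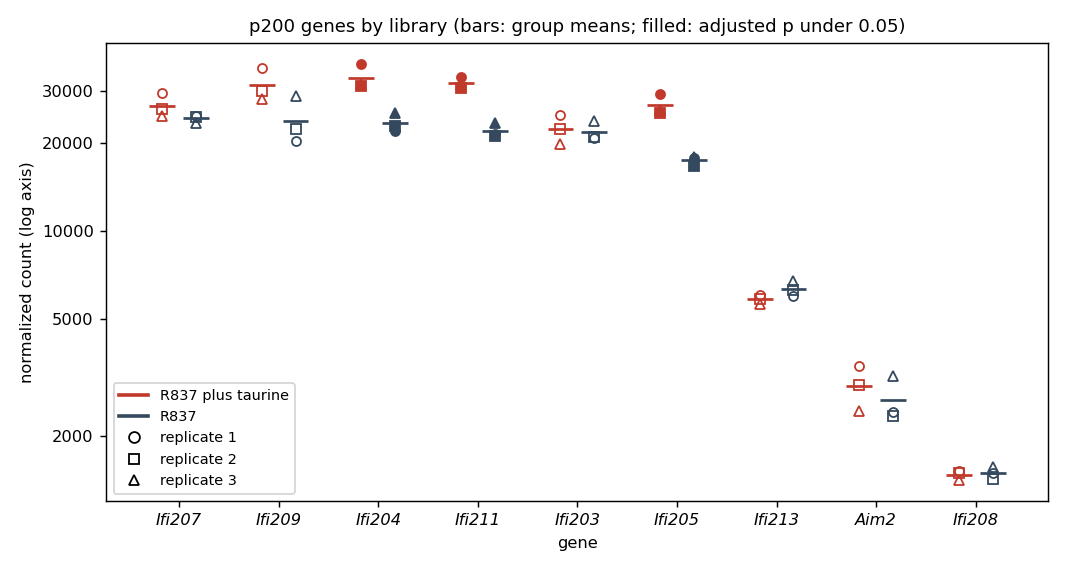
Normalized counts (log axis) of the 9 p200 members in each library, R837 plus taurine in red on the left of each gene and R837 in dark blue on the right, with group means as bars and replicates by symbol. Filled symbols mark the 3 genes with an adjusted p below 0.05, Ifi204, Ifi211 and Ifi205, in which the groups do not overlap.

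Ifi205, which in mouse macrophages has been tied to the expression of the inflammasome adaptor Pycard, had 29366, 25241 and 26009 normalized counts in the taurine libraries, against 17803, 16633 and 17864 in the R837 libraries. The 3 R837 libraries lay close together, and the lowest taurine library was well above the highest of them. The means were 26872 ± 2194 with taurine and 17433 ± 694 with R837 (SD, n = 3 each), a log2 change of 0.62 ± 0.07 (SE; 95% interval 0.46 to 0.79; limma adjusted p = 0.00506). The call held in all 6 fits that each left out 1 library, with log2 changes of 0.56 to 0.67, but not after trends with exon length and GC content were removed, where the log2 change was 0.54 (adjusted p = 0.0876).

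Ifi211, the row that carries the older name Mnda, had 33519, 30823 and 31680 normalized counts with taurine and 21443, 21058 and 23428 with R837. Its human relative MNDA is a nuclear antigen of myeloid cells. No library of one group came near those of the other. The means were 32007 ± 1378 with taurine and 21976 ± 1272 with R837 (SD, n = 3 each), and the log2 change was 0.54 ± 0.06 (SE; 95% interval 0.40 to 0.69; limma adjusted p = 0.00509). The call held in all 6 fits that left out 1 library.

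Ifi204 had 37369, 31224 and 31712 normalized counts with taurine and 21896, 22893 and 25331 with R837. Taurine replicate 1 stood above the other 2 taurine libraries, and the groups did not overlap. The means were 33435 ± 3416 with taurine and 23373 ± 1767 with R837 (SD, n = 3 each), and the log2 change was 0.51 ± 0.09 (SE; 95% interval 0.32 to 0.71; limma adjusted p = 0.0147). The call was kept in 3 of 6 fits that left out 1 library; it was lost without taurine replicate 3 (adjusted p = 0.0504), without R837 replicate 1 (0.0527) and without R837 replicate 2 (0.0730), where the log2 changes were 0.55, 0.47 and 0.50.

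Ifi209, formerly Pyhin1, had 36185, 30214 and 28367 normalized counts with taurine and 20262, 22351 and 28884 with R837. R837 replicate 3 lay above taurine replicate 3, so that the groups overlapped, and the taurine library was the higher one in 8 of the 9 pairs of libraries. The means were 31589 ± 4086 with taurine and 23832 ± 4498 with R837 (SD, n = 3 each), and the log2 change of 0.42 ± 0.14 (SE; 95% interval 0.11 to 0.72) missed the threshold (limma adjusted p = 0.104). It passed without R837 replicate 3, at a log2 change of 0.56 (adjusted p = 0.0189), with DESeq2 (adjusted p = 0.0274) and after length and GC trends were removed (adjusted p = 0.0146). Among all genes the main fit called 979. The fit without R837 replicate 3 called 1477, DESeq2 1913 and the fit without length and GC trends 966.

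Aim2, the receptor of the DNA inflammasome, had 3456, 2980 and 2433 normalized counts with taurine and 2417, 2327 and 3188 with R837. The groups interleaved, with taurine replicate 3 close to the lower R837 libraries and R837 replicate 3 above 2 taurine libraries. The means were 2956 ± 512 with taurine and 2644 ± 473 with R837 (SD, n = 3 each), and the interval of the log2 change of 0.16 ran from -0.19 to 0.52 (limma adjusted p = 0.581). With 1 library left out, the log2 change lay between 0.04 and 0.30. A change of the size seen in Ifi204 (0.51) lay just inside the interval of Aim2.

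Ifi207 had 29538, 26155 and 24728 normalized counts with taurine and 24771, 24550 and 23489 with R837. Taurine replicate 3 lay between 2 of the R837 libraries, and the log2 change of 0.14 had an interval of -0.03 to 0.31 (limma adjusted p = 0.293). Ifi203, another interferon-induced member, had 24866, 22411 and 19911 with taurine and 20758, 20966 and 23715 with R837. The R837 libraries all lay inside the range of the taurine libraries, and the log2 change of 0.03 had an interval of -0.17 to 0.24 (adjusted p = 0.862).

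Ifi213 and Ifi208, formerly Pydc4 and Pydc3 after the pyrin domain they encode, were the 2 members with negative values. Ifi213 had 6046, 5843 and 5649 normalized counts with taurine and 5979, 6287 and 6733 with R837. Only R837 replicate 1 lay inside the range of the taurine libraries, and the log2 change of -0.11 had an interval of -0.28 to 0.05 (limma adjusted p = 0.387). Ifi208, the member with the lowest counts, had 1517, 1487 and 1412 with taurine and 1493, 1428 and 1569 with R837. The groups overlapped, and the log2 change of -0.02 had an interval of -0.23 to 0.18 (adjusted p = 0.912). For Ifi207, Ifi203, Ifi213 and Ifi208 the upper bounds, between 0.05 and 0.31, lay below the lower bound for Ifi205 (0.46), although the difference between genes was not itself tested.

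**Figure D2:**
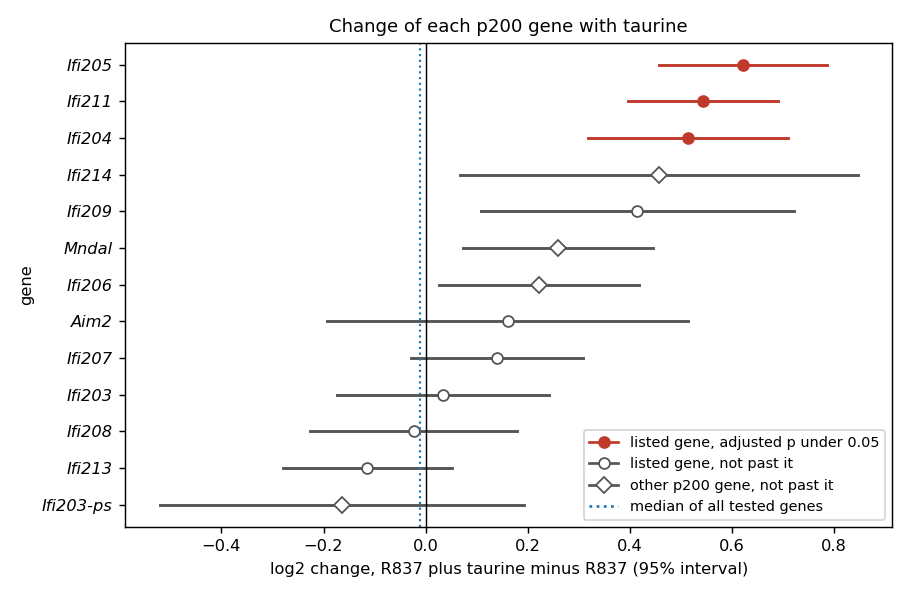
Log2 change (R837 plus taurine minus R837) with its 95% interval for the 13 p200 genes that passed the filter, ordered by size; circles are the 9 members, diamonds other p200 genes, red those with an adjusted p below 0.05, and the dotted line the median of all tested genes (-0.01). Ifi205, Ifi211 and Ifi204 stand at the top, between 0.51 and 0.62, and Ifi213 at -0.11 is the lowest member.

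Some libraries were high for nearly all members. Taurine replicate 1 was the highest of the taurine libraries for 9 of 9 members, and R837 replicate 3 was the highest of the R837 libraries for 8 of 9, the exception being Ifi207. How often these libraries were highest over all tested genes was not counted, so the pattern may not be particular to these genes. Summed over the 9 members, the libraries held 201863, 176377 and 171901 normalized counts with taurine and 136821, 138491 and 154200 with R837. These sums were 0.553%, 0.483% and 0.470% of the taurine libraries' totals and 0.383%, 0.391% and 0.441% of the R837 libraries' totals. The mean sum was 183380 ± 16162 with taurine and 143171 ± 9588 with R837 (SD, n = 3 each), a log2 difference of 0.36. Every taurine library lay above every R837 library, and the two-sided exact permutation p was 0.1, the smallest that 3 libraries against 3 allow. Leaving any member out of the sum moved the log2 difference to between 0.31 and 0.41. The 3 genes that rose summed to a log2 difference of 0.55 and the other 6 to 0.18. This split was made by the calls in these same libraries, so the larger value of the 3 was set by the choice.

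A share of the summed counts of the 9 members, called the family sum here, does not depend on how libraries were scaled. The make-up of that sum was therefore also compared. The p200 genes outside the 10 names, such as Mndal, are not in it. Ifi204 took 18.2% of the family sum with taurine and 16.3% with R837, Ifi211 17.5% and 15.4%, and Ifi205 14.7% and 12.2%. For these 3 genes the shares of the groups did not overlap, the smallest gap being that of Ifi211, with 16.6% to 18.4% with taurine and 15.2% to 15.7% with R837. Ifi207 took 14.4% to 14.8% with taurine and 15.2% to 18.1% with R837, and Ifi203 took 11.6% to 12.7% with taurine and 15.1% to 15.4% with R837. The shares of Ifi213 (3.20% with taurine, 4.43% with R837) and Ifi208 (0.805% with taurine, 1.05% with R837) had likewise no overlap between groups, both lower with taurine. Ifi209 at 17.2% with taurine and 16.6% with R837, and Aim2 at 1.61% and 1.84%, had overlapping shares. A share falls when other members rise, so a lower share is not a lower level. Ifi204, Ifi211 and Ifi205 were called higher in these same libraries and make up much of the sum. Their higher shares, and the lower shares of other members, thus follow in part from those calls and are no separate support. How often such shares separate the groups in other gene families was not tested.

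Levels of different genes were compared per kilobase of annotated exon. With taurine the order was Ifi211 (17931 normalized counts per kb), Ifi204 (9389), Ifi209 (8906), Ifi207 (7834), Ifi205 (6433), Ifi203 (3340), Ifi213 (855), Aim2 (844) and Ifi208 (280). With R837 alone it was Ifi211 (12312), Ifi207 (7092), Ifi209 (6719), Ifi204 (6564), Ifi205 (4174), Ifi203 (3253), Ifi213 (926), Aim2 (755) and Ifi208 (285). Ifi211 ranked 96 of 15265 tested genes by this measure, and Ifi204, Ifi209, Ifi207 and Ifi205 ranked between 212 and 336. The library range of Ifi209 overlapped those of Ifi204 and Ifi207 in both groups, and the ranges of Ifi213 and Aim2 overlapped likewise. The orders of these pairs were within the spread. With taurine, however, Ifi204 (8768 to 10494) lay above Ifi207 (7226 to 8632) in every library, whereas with R837 the ranges of Ifi204 and Ifi207 overlapped. Ifi211 has 1 annotated transcript and the shortest exon length of the members, 1785 bases, and it shares more sequence with its neighbours than any other member, so its per-kb level also depends on how reads from identical stretches were assigned.

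That sharing was measured as the share of a gene's 50-base transcript windows that occur unchanged in the transcripts of another gene. For Ifi211 it was 72.8%: 44.7% of the windows were also in Ifi205, 30.1% in Ifi204 and 17.1% in Mndal, the p200 gene whose span includes Ifi211. The share was 33.7% for Ifi209, nearly all with Ifi214, and 20.8% for Ifi208, 15.6% for Ifi213, 18.6% for Ifi205, 12.2% for Ifi203 and 7.29% for Ifi207. Of the windows of Ifi204, 14.8% were also in Ifi211. In Aim2 only 0.628% of windows occurred elsewhere. All 3 genes that rose thus belonged to one group of copies, and their separate values are uncertain to the extent that reads were split between them. When the genes that share at least 10% of windows were added together, the set of Ifi204, Ifi205, Ifi211 and Mndal held 130419, 114919 and 115433 normalized counts with taurine and 83058, 83012 and 92351 with R837. Its groups lay far apart, and the log2 change was 0.48 (95% interval 0.32 to 0.64; limma adjusted p = 0.0101). The set of Ifi209 and Ifi214 had a log2 change of 0.42 (adjusted p = 0.104), the set of Ifi206, Ifi208 and Ifi213 one of -0.02 (adjusted p = 0.880), and Ifi203 with its pseudogene one of 0.03 (adjusted p = 0.881).

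**Figure D3:**
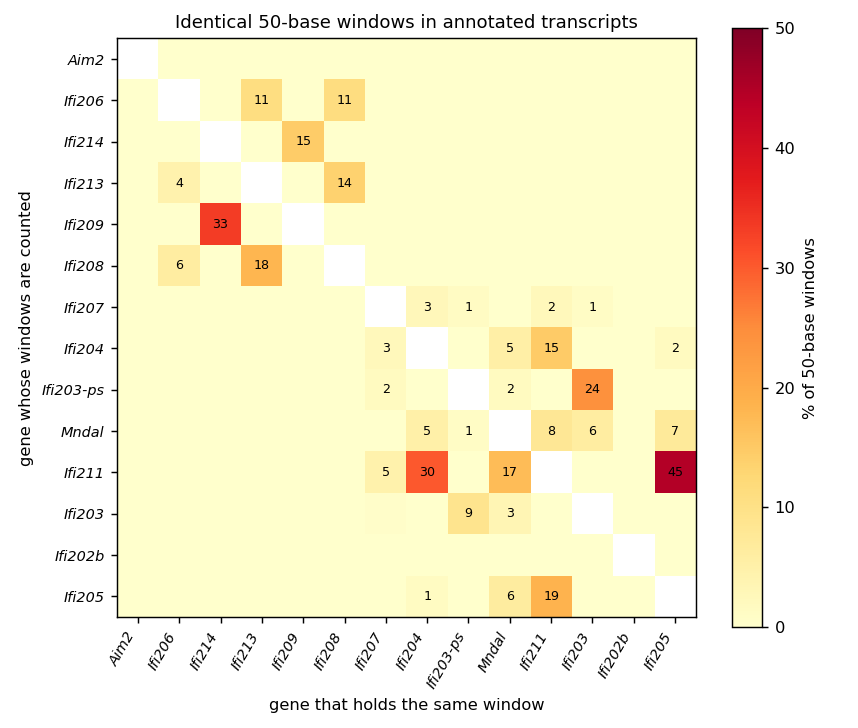
Share of each p200 gene's 50-base transcript windows (rows, in percent) that occur unchanged in another p200 gene (columns). The darkest cell is Ifi211 against Ifi205 at 44.7%, Ifi209 and Ifi214 form a pair, and Aim2 and Ifi202b share almost nothing within the family.

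The genes lie between Aim2 (chr1:173350879-173466040 in mm10, plus strand) and Ifi205 (chr1:174011998-174031810, minus strand), a span of 681 kb with 22 annotated genes that had a row. From the Aim2 end onwards the members are Ifi213 (chr1:173566283-173599274, minus strand), Ifi209 (chr1:173630917-173647928, plus strand), Ifi208 (chr1:173673675-173698395, plus strand), Ifi207 (chr1:173723427-173741747, minus strand), Ifi204 (chr1:173747293-173766943, minus strand), Ifi211 (chr1:173896345-173913046, minus strand) and Ifi203 (chr1:173920407-173942672, minus strand). The 3 genes that rose all lie on the Ifi205 side of Ifi207, with Ifi203, which missed the threshold, between Ifi211 and Ifi205. Ifi203 shares 37 exon bases with Mndal on the same strand, and when the reads of both were added the log2 change was 0.16 (limma adjusted p = 0.299). No other member overlapped an exon of another gene. Of the 8 genes in the span that are not named as p200 genes, 4 passed the filter. Cadm3, a neuronal adhesion molecule at the edge of the span, had 575, 565 and 627 normalized counts with taurine and 493, 441 and 557 with R837. The other 7 are pseudogenes or microRNAs. Some of these pseudogenes share sequence with p200 genes: 9.80% of the windows of Ifi206 also occur in Gm18752.

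**Figure D4:**
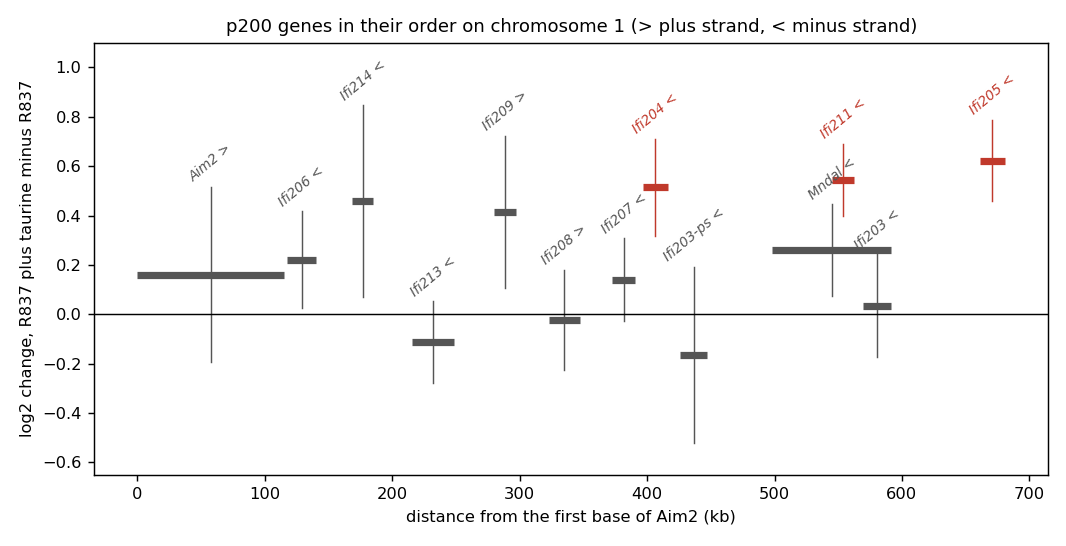
Log2 change (R837 plus taurine minus R837) of the p200 genes against their distance in kb from the first base of Aim2; thick bars span each gene, thin lines are 95% intervals, arrows give the strand and red marks an adjusted p below 0.05. Ifi204, Ifi211 and Ifi205 lie on the right, with Ifi203 (0.03) between Ifi211 and Ifi205.

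A further 5 annotated genes of the family were not among the 10 names, and 0 of the 4 that passed the filter were called by limma, edgeR or DESeq2, although 3 of them (Mndal, Ifi206 and Ifi214) had an unadjusted limma p below 0.05, as did 23.7% of all tested genes. Mndal, a close relative of human MNDA, had 30165, 27631 and 26032 normalized counts with taurine and 21916, 22429 and 25728 with R837. The lowest taurine library lay only slightly above the highest R837 library, and the log2 change was 0.26 (95% interval 0.07 to 0.45; limma adjusted p = 0.0958). Ifi206 had 2710, 2415 and 2499 with taurine and 2305, 2141 and 2091 with R837, a log2 change of 0.22 with groups that did not overlap (adjusted p = 0.162). Ifi214 had 1116, 1039 and 852 with taurine and 616, 672 and 921 with R837, a log2 change of 0.46 with groups that overlapped (adjusted p = 0.147). Both Mndal and Ifi214 passed the threshold without R837 replicate 3 (adjusted p = 0.0289 for Mndal and 0.0358 for Ifi214) and after length and GC trends were removed (0.0263 for Mndal and 0.0237 for Ifi214). Without R837 replicate 3 the fit called 1477 of all genes, against 979 with all 6 libraries. The pseudogene Ifi203-ps averaged 555 ± 99.3 with taurine and 616 ± 48.1 with R837 (SD, n = 3 each), a log2 change of -0.16 (adjusted p = 0.576). Ifi202b, which is known to be scarce in C57BL/6 mice, had 20 reads in taurine replicate 2 and 0 reads in the other 5 libraries, a count that allows up to 3 reads in each.

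**Figure D5:**
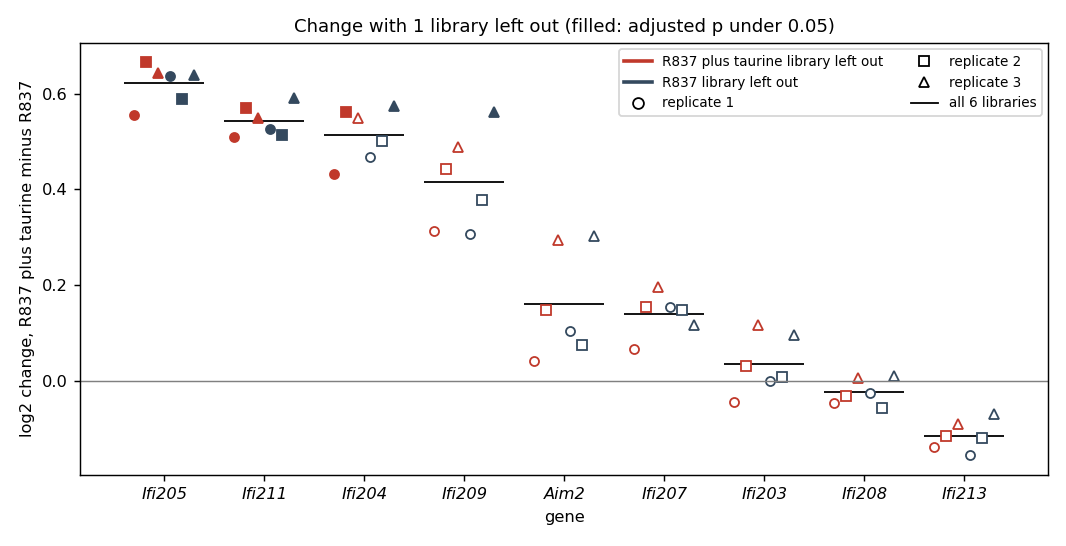
Log2 change of each member with 1 library left out in turn, red where a taurine library and dark blue where an R837 library was left out, with the replicate by symbol and the value from all 6 libraries as a black line; filled symbols have an adjusted p below 0.05. Ifi205 and Ifi211 keep the call in 6 of 6 fits and Ifi204 in 3 of 6, and Ifi209 passes only without R837 replicate 3.

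The plot with 1 library left out shows where a value leaned on a library. Without taurine replicate 1 the log2 change of Ifi205 was 0.56 and that of Ifi204 0.43, and without R837 replicate 3 that of Ifi209 was 0.56.

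The list around Aim2 held genes of the inflammasome pathway and regulators that act before, after or beside Aim2. Of its 16 tested genes 5 rose and 0 fell, with a median log2 change of 0.34. For this list and each list below, the shares over all tested genes were 3.75% higher and 2.66% lower, and no list was tested against them. Pycard, the adaptor that Aim2 recruits, averaged 965 ± 111 normalized counts with taurine and 803 ± 136 with R837 (SD, n = 3 each; log2 change 0.27, limma adjusted p = 0.309). Casp1, the caspase it activates, averaged 1169 ± 200 with taurine and 935 ± 87.1 with R837 (SD, n = 3 each; log2 change 0.31, adjusted p = 0.228). Gsdmd, the pore protein cleaved by the caspase, had 3192, 3288 and 3627 with taurine and 2207, 2168 and 2454 with R837. Its groups were clearly apart, with a log2 change of 0.57 (adjusted p = 0.0129). Ninj1, which ruptures the membrane of dying cells, had 1215, 1139 and 1216 with taurine and 830, 808 and 793 with R837, a log2 change of 0.55 (adjusted p = 0.0155). With 1 library left out, the call of Gsdmd was kept in 4 of 6 fits and that of Ninj1 in 2. The other 3 that rose were Zbp1, a nucleic acid sensor just inside the threshold (log2 change 0.31), and Gbp2 and Gbp5, which help to release bacterial DNA to Aim2 in mouse macrophages. The list is small and the count fell to as few as 2 when 1 library was left out.

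On the side of Ifi204, the list of STING pathway and other DNA sensor genes had 28 tested genes, of which 2 rose and 0 fell, with a median log2 change of 0.02. Tmem173, which encodes STING, had 3763, 3677 and 3708 normalized counts with taurine and 3775, 3825 and 3807 with R837. Every taurine library lay slightly below every R837 library, and the log2 change of -0.03 missed the threshold (limma adjusted p = 0.814). Mb21d1, the enzyme cGAS that makes the STING ligand, averaged 579 ± 39.1 with taurine and 549 ± 108 with R837 (SD, n = 3 each; log2 change 0.09, adjusted p = 0.766). Irf7, the interferon regulatory factor of pDCs, had 36430, 36795 and 39709 with taurine and 24748, 22975 and 24205 with R837. Its log2 change was 0.65 (adjusted p = 0.00296), close in size to that of Ifi205. Dhx58, an RNA helicase of the RIG-I group, had a log2 change of 0.34 (adjusted p = 0.0306), a call kept in 1 of 6 fits that left out 1 library. The subunits of the DNA-dependent protein kinase, Xrcc6 and Prkdc, had log2 values of -0.56 (adjusted p = 0.0520) and -0.60 (adjusted p = 0.0653), just outside the threshold. This list had between 1 and 5 calls with 1 library left out.

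Of 12 nucleases and other inhibitors of DNA sensing, 1 rose and 0 fell, with a median log2 change of 0.22. It was Samhd1, which degrades deoxynucleotides, at 51026 ± 858 normalized counts with taurine and 41722 ± 3626 with R837 (SD, n = 3 each; log2 change 0.29, limma adjusted p = 0.0445). Trex1, the cytosolic DNA exonuclease, had 15940, 15610 and 17379 with taurine and 12624, 5386 and 12707 with R837. R837 replicate 2 was far below the other libraries, and the log2 change of 0.77 missed the threshold (adjusted p = 0.141). Without that library the log2 change was 0.36 (adjusted p = 0.0760). The exons of Trex1 lie wholly within those of Atrip. Rnaseh2a and Rnaseh2b, subunits of the enzyme that removes RNA from DNA, had log2 values of 0.72 (adjusted p = 0.0591) and 0.46 (adjusted p = 0.126). Without R837 replicate 3 the number of calls was 3, and it was 0 when any of the other libraries was left out.

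Upstream, the interferon receptor and its transcription complex ISGF3 gave 1 rise and 1 fall among 9 genes, with a median log2 change of 0.05 and 0 to 2 calls with 1 library left out. Ifnar1, a chain of the type I interferon receptor, had 20830, 21762 and 21345 normalized counts with taurine and 27331, 27823 and 25303 with R837. It fell by 0.33 on the log2 scale (limma adjusted p = 0.0188), a call kept in 1 of 6 fits that left out 1 library, that without R837 replicate 3; in the others the adjusted p reached 0.0914. Usp18, an interferon-induced brake on that receptor, averaged 19598 ± 166 with taurine and 13858 ± 1320 with R837 (SD, n = 3 each; log2 change 0.50, adjusted p = 0.0112). Irf9, the DNA-binding part of ISGF3, had a log2 change of -0.09 (adjusted p = 0.436). Socs1, an inhibitor of cytokine signalling, had a log2 change of 0.35 (adjusted p = 0.0656).

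For comparison, 5 of 6 IFIT genes rose (median log2 change 0.52) and 4 of 11 guanylate-binding protein genes rose (median 0.36), and none of either list fell. Ifit1, which binds viral RNA, averaged 14838 ± 843 normalized counts with taurine and 9729 ± 272 with R837 (SD, n = 3 each; log2 change 0.61, limma adjusted p = 0.00443). Among the guanylate-binding proteins Gbp5 had 17363, 16956 and 17007 with taurine and 10822, 9992 and 10254 with R837 (log2 change 0.72, adjusted p = 0.00238). Both lists had 2 to 5 calls with 1 library left out. Identical windows were not counted for either list, so how far their genes share reads is not known. Gbp2 and Gbp5 are counted in both the inflammasome list and the guanylate-binding protein list. The members of the 3 families were not tested against each other.

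The genes whose values ran most closely with the family sum of the 9 members over the 6 libraries were found among 10703 genes with a mean normalized count of at least 100. The 5 with the highest Pearson r were Gm12758 (0.998), an antisense transcript, Dnaja1 (0.989), a heat-shock co-chaperone, Tpm3-rs7 (0.982), a tropomyosin-like gene, Ddx60 (0.981), an interferon-induced helicase, and Hint2 (0.978), a mitochondrial hydrolase. All 5 had their 3 taurine libraries above their 3 R837 libraries, which held for 14.6% of all tested genes. The family sum had the same order, so choosing genes by their likeness to it all but fixed this. Ddx60 was the only 1 of the 5 called (log2 change 0.57, limma adjusted p = 0.0283). Of the genes compared, 47 (0.439%) had an r of at least 0.95. Without a known strand setting, reads of Gm12758 cannot be told from those of a gene on the opposite strand, and Tpm3-rs7 is a near copy of Tpm3, so both values are uncertain.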

How the data were processed

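RNA of splenic pDCs was sequenced as 6 mRNA libraries. The deposited values, per the file headers, are normalized counts per gene; in each library they are whole reads divided by 1 size factor, since 100% of values were multiples of a common step within 0.001 read, so the signal is the authors' normalized count. The submitters' processing notes name HISAT2 and StringTie, and as builds mm10 and mm8. How reads were counted, with what strand setting and what was done with reads of several matches was not given in the sources used here, so reads of overlapping genes and identical copies may be split in unknown ways. Of the gene identifiers, 52403 were found in GENCODE M21 (mm10), and 95.2% of these had the same coordinates. Symbols that had become day numbers in 26 rows were replaced from the identifiers.

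Normalized counts were tested with limma 3.58.1 (R 4.3.3), with an abundance trend, on log2(normalized count + 1), for 15265 genes with at least 10 normalized counts in at least 3 of 6 libraries, with Benjamini-Hochberg adjustment over all of them, two-sided. A fold or log2 change is on that scale. It called 979 genes. The count tests, edgeR 4.0.16 (quasi-likelihood) and DESeq2 1.42.0 on the recovered reads, were alternatives and called 950 and 1913 genes. Other alternatives were pseudocounts, filters, scalings, the replicate number as a block, each library left out and overlapping genes added; removing length and GC trends (mgcv 1.9.3) and summing similar copies were chosen after seeing the data. Nothing in the labels pairs libraries by number, and the deviations of same-numbered libraries correlated at -0.0434 to -0.00264. Nothing says that replicates came from separate cultures or mice, so the p-values measure only the spread between these libraries, which may be technical.

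Named genes are all members, the other genes of the family and its span, up to 4 genes with the smallest p of each list, a few pathway genes whatever their values, and the 5 genes most like the family sum; Zbp1, Cadm3 and the marker genes beyond these were named after their values were seen. The members and gene lists were chosen with earlier results of these data known. Promoters come from RefSeq (GRCm38.p6), counts of 0 are read as up to 3 reads, and such limits cover counting error only.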

Additional observations from a re-analysis of the deposited data

How the results depend on the processing

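Direction and call were recomputed for each p200 gene, each companion gene and likeness gene named by rule, and each count, but marker genes, Zbp1 and Cadm3 were not included. Single-gene values kept their direction and side of the threshold in 757 alternatives, passed it anew in 23, lost it in 69 and changed sign in 6. Those 6 were of genes not called with all libraries: Ifi208 (log2 change -0.057 to 0.011 with 1 library left out, 0.0065 without taurine replicate 3, 0.011 without R837 replicate 3 and 0.092 after length and GC trends were removed), Ifi203 (-0.034 with quantile normalization -0.044 without taurine replicate 1, and at most 0.12 with 1 library left out) and Mb21d1 (-0.0084 without R837 replicate 2). The 3 called members were called under each scaling, filter, pseudocount, the block, edgeR and DESeq2. Without the abundance trend limma called 0 members and 0 companion-list genes, where 3 members and 29 list genes had an unadjusted p below 0.05 (21.1% of all genes did), and 4 of all genes; edgeR called 3 members and DESeq2 4. The number of genes called, 979, was 547 with no filter, 615 with the replicate block, 1913 with DESeq2 and 134 to 1477 with 1 library left out, lowest without R837 replicate 2 and highest without R837 replicate 3. Members called numbered 2 to 4 with 1 library left out. Companion-list genes called, 17, were 26 with DESeq2 and 5 to 25 with 1 library left out. With the replicate block the summed log2 difference was 0.36 (exact p = 0.25, the smallest that 3 pairs allow); the filter and the tests on many genes do not enter the sum. Scaling moved the median of all genes to at most -0.05. The cause of these changes was not tested. Read sharing between copies and the unknown origin of replicates limit single-gene values.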
